A study of Oryctolagus cuniculus with 34 samples.

Results

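PDGFRA, TGFB1 and TIMP3, 3 genes that report on fibro-adipogenic signalling in muscle, were followed in rabbit supraspinatus muscle after delayed rotator cuff repair. They are the rows ENSOCUG00000000258, ENSOCUG00000016689 and ENSOCUG00000008310 of a table of 23669 genes, chosen by name. The pairing of the TGFB1 and TIMP3 identifiers with their symbols rests on a single supplementary table of the study and was not verified against a second source. All 3 were among the 12937 genes that passed the filter of more than 1 CPM (counts scaled to the size of the library) in at least 1 library. The study asked how muscle transcription changes over time once a chronically torn cuff is repaired. In female New Zealand White rabbits about 6 months old, the left supraspinatus tendon was cut, left detached for 8 weeks and then sutured back to the humerus ("repair"), while the right shoulder of the same animal served as control. The study's methods call the right side unoperated in the account of surgery and sham in the account of the analysis, and the submitters' treatment note mentions a sham with a skin incision, so that the control may or may not have carried a cut. Muscle from the posterior lateral region of both shoulders was collected at 1 (4 rabbits), 2 (5 rabbits), 4 (4 rabbits) and 8 weeks (4 rabbits) after repair. Every repair library thus carries the tenotomy, the 8 weeks of unloading and the repair together, and these cannot be told apart with these groups.

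PDGFRA encodes the alpha receptor for platelet-derived growth factors, a tyrosine kinase that in adult skeletal muscle marks the fibro-adipogenic progenitors, the interstitial stromal cells that can become fibroblasts or adipocytes. TGFB1 encodes transforming growth factor beta 1, a ligand that is secreted in latent form, is released from the matrix, signals through TGFBR1 and TGFBR2 to SMAD transcription factors, and is known as a driver of muscle fibrosis. TIMP3 encodes a matrix-bound inhibitor of matrix metalloproteases, ADAM and ADAMTS proteases, and is itself a known target of TGF-beta. Stromal cells, macrophages and vessel cells all express members of these pathways, and in bulk muscle a change in the number of such cells and a change in RNA per cell cannot be told apart.

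Of 34 libraries, 33 were used (17 control, 16 repair), with 9220035 to 28395188 expected counts per library (median 12127768). Sample titles fall in 2 series, 1 for weeks 1 and 8 (median 19343431 counts) and 1 for weeks 2 and 4 (median 10625163 counts), so that level differences between these pairs of weeks cannot be told apart from the title series. The left library of rabbit 3 (8 weeks) entered only an alternative fit, and otherwise that rabbit contributes a control only. In the repair libraries of rabbits 59 and 62, both at 2 weeks, the summed CPM of 20 stromal marker genes was 63500 and 19300, against 1610 to 3990 in the repair libraries of the other 3 rabbits at 2 weeks. The 3 collagens of that list made up 85.3% and 71.5% of the sum in these libraries, against 22% to 80.5% in the other repair libraries. The 80.5% was in the repair library of rabbit 7 at 1 week, whose sum of 21400 CPM was above that of rabbit 62. Tests of the 3 genes at 2 weeks and in the mean are given with and without the repair libraries of rabbits 59 and 62. So are the counts of the pathway and stromal lists. The exception is TGFB1 at 2 weeks, for which no adjusted p and only an approximate log2 fold change is given without these libraries. Tests of weeks 2 and 4 together, or of 4 against 2 weeks, are given only with them.

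The 3 genes differed widely in read counts. CPM is not corrected for gene length, so the following are sequencing yields and not an order of transcript abundance. Counts per library ran from 782 to 6348 for TIMP3, from 73 to 2948 for PDGFRA and from 10 to 142 for TGFB1. For TGFB1 the spread between control libraries was below the counting error at 2, 4 and 8 weeks (7.66% to 21.6% of the mean, against 14.5% to 24.3%) and close to it at 1 week (18.8% against 17.9%). For PDGFRA and TIMP3 the spread between libraries exceeded the counting error in every group. In the RefSeq annotation of another rabbit assembly, mOryCun1.1, TIMP3 lies within the span of SYN3 and TGFB1 has B9D2 and CCDC97 as neighbours. Whether the counting used the strand is not given in the sources used here, so that reads of an overlapping gene may be included.

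PDGFRA was higher in the repaired than in the control muscle of 14 of 16 rabbits, with median folds of 2.05, 1.5, 2.18 and 1.3 from the first to the last time point, and with the highest single values in rabbits 59 and 62 at 2 weeks. At 1 week its TMM-normalised CPM was 25.7, 32.9, 26.2 and 17.1 in the controls of rabbits 5, 6, 7 and 8. The repaired muscles of the same rabbits, in that order, had 35.5, 72.9, 70.7 and 32.5 CPM. Every repaired muscle was above its own control, by 1.38- to 2.7-fold, although the lowest repair value lay just under the highest control value. The mean was 25.5 ± 6.47 CPM (SD, n = 4) in control and 52.9 ± 21.9 CPM (n = 4) in repair, a log2 fold change (log2FC) of 0.97 (SE 0.56, adjusted p = 0.22). In the repaired muscle of rabbit 6, which had the highest PDGFRA of this week, 3 muscle fibre markers summed to 3940 CPM, against 18300 to 35600 CPM in the other repaired muscles and 33100 to 45800 CPM in the controls. Without that library the log2FC at 1 week was 0.79 for PDGFRA, 0.95 for TGFB1 and 0.61 for TIMP3, and none was called.

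At 2 weeks the controls of rabbits 59, 60, 61, 62 and 64 had 10.6, 7.56, 13.3, 9.14 and 11.9 CPM of PDGFRA. Their repaired muscles had 187, 11.3, 18.3, 71.5 and 13.3 CPM. The repaired muscles of rabbits 59 and 62 stood far above all others, at 17.7- and 7.82-fold of their own controls, while the other 3 rabbits had 1.12- to 1.5-fold, with repair values of 11.3 to 18.3 CPM beside controls of 7.56 to 13.3 CPM. The group means were 10.5 ± 2.25 and 60.3 ± 75.1 CPM (n = 5 each), and PDGFRA rose by a log2FC of 1.68 (SE 0.58, adjusted p = 0.0467), past the DE threshold of an adjusted p under 0.05 with an absolute log2FC above 1. Without the repair libraries of rabbits 59 and 62 the log2FC at 2 weeks was 0.44 (adjusted p = 0.667). The call was near its threshold: it was lost without any 1 of 7 of the 10 libraries of 2 weeks (adjusted p from 0.0689 to 0.162), and with the left-out library of rabbit 3 put back it was 1.66 (adjusted p = 0.0754).

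At 4 weeks PDGFRA was at 8.08, 8.63, 17.8 and 12.3 CPM in the controls of rabbits 63, 66, 67 and 68. Repaired muscle of these rabbits had 34.5, 24.2, 30.2 and 8.8 CPM. Rabbit 68 was the exception, with repair at 0.715-fold of control, and its value made the groups overlap, since the other 3 repaired muscles were above every control. The means were 11.7 ± 4.48 and 24.4 ± 11.2 CPM (n = 4 each, log2FC 0.96, SE 0.65, adjusted p = 0.475).

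At 8 weeks the controls of rabbits 1, 2, 3 and 4 had 33.3, 29.1, 33.4 and 33.7 CPM of PDGFRA, and the repaired muscles of rabbits 1, 2 and 4 had 30.1, 37.7 and 53 CPM. Repair was above control in rabbits 2 and 4 and below it in rabbit 1, and the groups overlapped. The means were 32.4 ± 2.22 (n = 4) and 40.3 ± 11.7 CPM (n = 3), with a log2FC of 0.28 (SE 0.59, 95% interval -0.93 to 1.48, adjusted p = 0.999). With 1 of the 7 libraries left out in turn the log2FC was 0.06 to 0.47, and it was never called. Averaged over the 4 weeks, PDGFRA rose by a log2FC of 0.97 (95% interval 0.36 to 1.58, SE 0.30, adjusted p = 0.0117), or 1.96-fold, and by 0.67 (adjusted p = 0.00473) without the repair libraries of rabbits 59 and 62. By title series it was 0.62 (95% interval -0.21 to 1.46, adjusted p = 0.323) in weeks 1 and 8, where 6.84% of all genes were called, and 1.32 (adjusted p = 0.0273) in weeks 2 and 4, where 25.9% were. With each series fitted alone the calls were the other way round, 0.62 (adjusted p = 0.0333) in weeks 1 and 8 and 1.29 (adjusted p = 0.0872) in weeks 2 and 4. The value of weeks 2 and 4 includes rabbits 59 and 62. The median within-rabbit log2 ratio of PDGFRA was 0.76 in weeks 2 and 4 and 0.65 in weeks 1 and 8. The difference between the series was not tested.

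**Figure D1:**
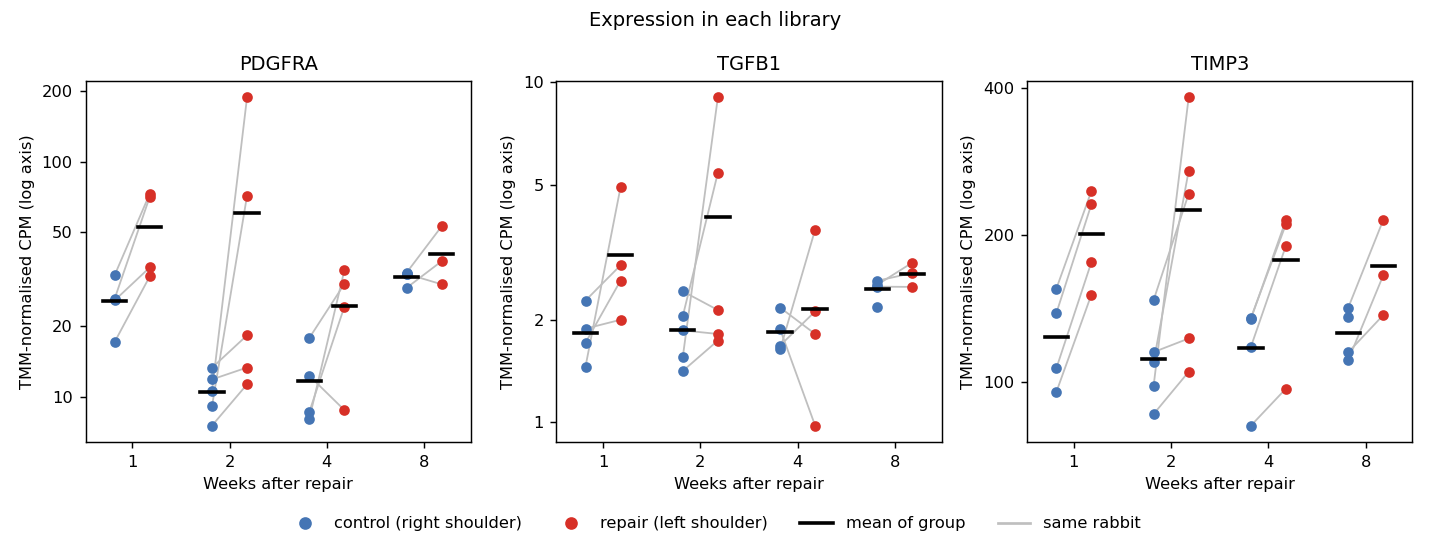
TMM-normalised CPM (log axis) of PDGFRA, TGFB1 and TIMP3 in each of 33 libraries by weeks after repair; blue points are control and red points repaired muscle, grey lines join the shoulders of a rabbit and black bars are group means. TIMP3 is higher in repair in all 16 rabbits, PDGFRA in 14 and TGFB1 in 11, and at 2 weeks the means of PDGFRA and TGFB1 are pulled up by 2 rabbits.

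The level of PDGFRA also differed between control muscles. In the 8 controls of weeks 1 and 8 it was 28.9 ± 5.8 CPM, and in the 9 controls of weeks 2 and 4 it was 11 ± 3.23 CPM, with ranges of 17.1 to 33.7 and 7.56 to 17.8 CPM. The ranges overlapped only in the lowest library of the first set and the highest of the second, and the difference was 1.40 on the log2 scale (adjusted p = 0.0299). In this comparison 15.5% of all genes were called. The week after repair and the title series cannot be told apart here, and the summed stromal markers moved with it, at 3300 to 6090 CPM in the first set of controls and 1600 to 3120 CPM in the second. TGFB1 (2.15 ± 0.421 and 1.85 ± 0.322 CPM, log2 difference 0.16, adjusted p = 0.784) and TIMP3 (125 ± 20.7 and 114 ± 22.7 CPM, log2 difference 0.14, adjusted p = 0.691) did not pass this test. Ordered by mean, the groups for PDGFRA ran from repair at 2, 1 and 8 weeks down to controls of 4 and 2 weeks, and in every step of that order the ranges of neighbouring groups overlapped.

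TGFB1 was higher in repair in 11 of 16 rabbits and did not pass the threshold at any week or on average. Its controls at 1 week had 2.28, 1.89, 1.46 and 1.71 CPM in rabbits 5, 6, 7 and 8. The repaired muscles had 2.89, 2, 4.91 and 2.61 CPM. All 4 were above their own control, by 1.06- to 3.37-fold, with rabbit 7 highest, and the groups overlapped through rabbit 6. The means were 1.83 ± 0.345 and 3.1 ± 1.26 CPM (n = 4 each, log2FC 0.74, SE 0.37, adjusted p = 0.156). With 1 of the 8 libraries left out in turn the log2FC was 0.46 to 0.95, and it was never called.

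For TGFB1 at 2 weeks, controls of rabbits 59, 60, 61, 62 and 64 had 1.56, 1.86, 2.43, 2.05 and 1.42 CPM. In repair the same rabbits had 9.01, 1.82, 2.14, 5.41 and 1.74 CPM. Rabbits 59 and 62 again stood apart, at 5.78- and 2.63-fold, whereas the other 3 lay between 0.881- and 1.23-fold and inside the control range. The means were 1.86 ± 0.402 and 4.02 ± 3.18 CPM (n = 5 each), with a log2FC of 0.90 (SE 0.41, adjusted p = 0.115). The call depended on the test, since edgeR gave 1.12 (adjusted p = 0.0239), DESeq2 1.13 (adjusted p = 0.0165) and the fit with the rabbit as a block 1.07 (adjusted p = 0.0453), while with that block and without rabbits 59 and 62 it was -0.0019. These tests also called more of all genes at 2 weeks, 28.7%, 31.2% and 31.6% in that order. With the rabbit entered as an estimated correlation (limma's duplicateCorrelation), TGFB1 was not called (0.89, adjusted p = 0.0844). The fit without a block that left out only the repair libraries of rabbits 59 and 62 did not call TGFB1 either. Its log2FC is given only in the plot of fold changes by week, and is not the value of the block fit above.

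At 4 weeks, TGFB1 controls of rabbits 63, 66, 67 and 68 had 1.64, 1.68, 2.17 and 1.88 CPM and their repaired muscles 3.69, 2.12, 1.82 and 0.978 CPM. Rabbits 63 and 66 were higher in repair and rabbits 67 and 68 lower, and the groups overlapped fully. The value of rabbit 68 rests on 10 counts, for which the exact 95% Poisson interval, covering counting error only, is 0.469 to 1.8 CPM. The means were 1.84 ± 0.244 and 2.15 ± 1.13 CPM (n = 4 each, log2FC 0.06, SE 0.51, adjusted p = 0.964), and the sign turned to -0.21 when the repaired muscle of rabbit 63 was omitted.

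At 8 weeks, TGFB1 was at 2.5, 2.54, 2.18 and 2.61 CPM in the controls of rabbits 1, 2, 3 and 4, and at 2.5, 2.95 and 2.75 CPM in the repaired muscles of rabbits 1, 2 and 4. All 7 values lay close together, with within-rabbit folds of 0.998 to 1.16. The means were 2.46 ± 0.188 (n = 4) and 2.73 ± 0.224 CPM (n = 3), with a log2FC of 0.16 (95% interval -0.65 to 0.97, adjusted p = 0.999). Over the 4 weeks the mean effect on TGFB1 was 0.47 (SE 0.21, 95% interval 0.03 to 0.9, unadjusted p = 0.0363, adjusted p = 0.0785). With the rabbit as a block it was 0.54 (adjusted p = 0.0393), and edgeR and DESeq2 both gave 0.56 (adjusted p = 0.0249 and 0.0219). In the mean the block called 46.4% of all genes, edgeR 42.9% and DESeq2 45.5%. With the estimated correlation it was 0.46 (adjusted p = 0.0582). Without the repair libraries of rabbits 59 and 62 the mean effect on TGFB1 was 0.25 (adjusted p = 0.217), with 9 of the other 14 rabbits higher in repair. It was 0.45 in weeks 1 and 8 and 0.48 in weeks 2 and 4 (adjusted p = 0.283 and 0.265).

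TIMP3 was the most even of the 3 genes and was higher in repair in 16 of 16 rabbits, by 1.07- to 3.88-fold (median 1.58-fold). Of all genes tested, 2.49% were higher in repair in all 16 rabbits, 13% in as many as the 14 of PDGFRA or more, and 34.4% in as many as the 11 of TGFB1 or more. With CPM taken from library totals, without TMM, TIMP3 remained higher in 16 and PDGFRA in 14 rabbits, and TGFB1 was higher in 12.

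At 1 week TIMP3 was at 107, 138, 95.5 and 155 CPM in the controls of rabbits 5, 6, 7 and 8, and at 176, 231, 151 and 246 CPM in their repaired muscles. The within-rabbit folds were almost equal, at 1.65, 1.67, 1.58 and 1.58, so that the rabbits kept their order while the groups overlapped at the lowest repair and the highest control value. The SD of the 4 log2 ratios was 0.0398, against 0.76, 0.21 and 0.19 at 2, 4 and 8 weeks. At 1 week it was smaller than for all but 0.329% of 12167 genes, where the median SD was 0.308. These genes were not matched to TIMP3 for read counts. The means were 124 ± 27.7 and 201 ± 44.9 CPM (n = 4 each, log2FC 0.69, SE 0.32, adjusted p = 0.133), and with the rabbit as a block, which compares each muscle with its own control, the log2FC was 0.70 (adjusted p = 0.0368, in a fit that called 26.3% of all genes at 1 week). With the estimated correlation it was 0.69 (adjusted p = 0.0744).

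The TIMP3 controls at 2 weeks had 98.5, 115, 147, 110 and 86.2 CPM in rabbits 59, 60, 61, 62 and 64. Their repaired muscles had 382, 123, 243, 271 and 105 CPM. Rabbits 59, 61 and 62 were above every control, and rabbits 60 and 64 lay within the control range, at 1.07- and 1.22-fold of their own. The means were 111 ± 23 and 225 ± 114 CPM (n = 5 each), and TIMP3 rose by a log2FC of 0.85 (SE 0.26, adjusted p = 0.0316), under the fold required for DE. Without the repair libraries of rabbits 59 and 62 the log2FC was 0.42 (adjusted p = 0.485). This call too was lost without any 1 of 7 of the 10 libraries (adjusted p from 0.0511 to 0.138) and with the left-out library of rabbit 3 put back (adjusted p = 0.0707).

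At 4 weeks the TIMP3 controls of rabbits 63, 66, 67 and 68 had 118, 135, 135.5 and 81.6 CPM, and the repaired muscles 190, 215, 211 and 97.1 CPM. Rabbits 63, 66 and 67 were at 1.55- to 1.61-fold and above every control, while rabbit 68 was lowest in both shoulders and at 1.19-fold. The means were 118 ± 25.3 and 178 ± 55.1 CPM (n = 4 each, log2FC 0.55, SE 0.29, adjusted p = 0.346). With 1 of the 8 libraries left out in turn the log2FC was 0.39 to 0.83, and it was never called.

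At 8 weeks TIMP3 was at 115, 111, 136.1 and 142 CPM in the controls of rabbits 1, 2, 3 and 4, and at 137, 166 and 215 CPM in the repaired muscles of rabbits 1, 2 and 4. Repair was above the own control in all 3 rabbits, by 1.19-, 1.49- and 1.51-fold, and rabbit 1 overlapped the controls. The means were 126 ± 15.3 (n = 4) and 173 ± 39.2 CPM (n = 3), with a log2FC of 0.42 (SE 0.33, adjusted p = 0.999). With 1 of the 7 libraries left out in turn the log2FC was 0.26 to 0.59, and it was never called. Averaged over the 4 weeks, TIMP3 rose by 0.63 (SE 0.15, 95% interval 0.32 to 0.94, adjusted p = 0.00243), or 1.55-fold, and by 0.53 (adjusted p = 0.00329) without the repair libraries of rabbits 59 and 62. In weeks 1 and 8 it was 0.55 (adjusted p = 0.126) and in weeks 2 and 4 it was 0.70 (adjusted p = 0.0117). Here too the calls turned with each series fitted alone, to 0.55 (adjusted p = 0.0138) and 0.68 (adjusted p = 0.0565).

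Across the weeks, 2 of the 3 genes were called at 2 weeks, where 15.9% of all 12937 genes were called in either direction by limma-voom with Benjamini-Hochberg adjustment. At 1 week 0 of 3 were called, against 13.7% of all genes, with TIMP3 alone of the 3 at an unadjusted p under 0.05. At 4 and 8 weeks 0 of 3 were called, with none at an unadjusted p under 0.05, and the background there was 0.124% and 0.00773%. edgeR and DESeq2 called none of the 3 genes at 1, 4 or 8 weeks. Of all genes they called 12.1% and 17.5% at 1 week, 2.53% and 5.15% at 4 weeks, and 0.00773% and 0.0387% at 8 weeks. In the mean over the 4 weeks 2 of 3 were called, where 40.1% of all genes were called and 22.4% were called higher. Without the repair libraries of rabbits 59 and 62 the same 2 genes, PDGFRA and TIMP3, were called in the mean, beside 35.4% of all genes, and 0 of 3 at 2 weeks, beside 0.128%. A rise called in the mean is therefore common among all genes, and 10.2% of genes had a larger mean log2FC than PDGFRA, 18.3% a larger one than TIMP3 and 24% a larger one than TGFB1.

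**Figure D2:**
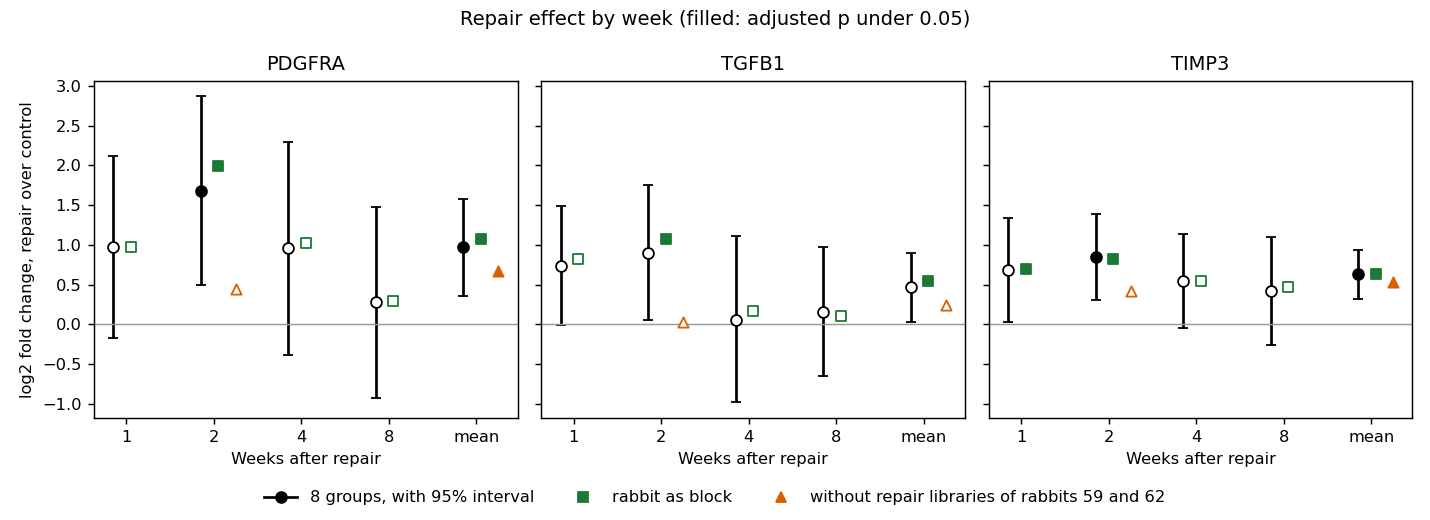
log2 fold change of repair over control at each week and averaged over the 4 weeks; black points with 95% intervals come from limma-voom on 8 groups, green squares from the fit with the rabbit as a block, and orange triangles, shown at 2 weeks and for the mean, from the fit without the repair libraries of rabbits 59 and 62 (filled symbols have an adjusted p under 0.05). At 2 weeks the orange triangles lie near 0.44, 0.42 and 0 for PDGFRA, TIMP3 and TGFB1.

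The repair effect was not shown to differ between weeks of the same title series. The effect at 8 weeks minus that at 1 week was -0.70 for PDGFRA (95% interval -2.36 to 0.96), -0.58 for TGFB1 (-1.68 to 0.53) and -0.26 for TIMP3 (-1.21 to 0.68). The effect at 4 weeks minus that at 2 weeks was -0.72 for PDGFRA (-2.51 to 1.07), -0.84 for TGFB1 (-2.19 to 0.5) and -0.30 for TIMP3 (-1.1 to 0.5). All 6 adjusted p-values were 0.838 or higher, 0 of all genes were called in either difference (0% of 12937), and the intervals are wide enough to hold both no change and the loss of the whole effect. The differences between 4 and 2 weeks include rabbits 59 and 62 and are not given without them. In the other 3 rabbits of 2 weeks the log2 ratios were 0.17 to 0.58 for PDGFRA, -0.18 to 0.3 for TGFB1 and 0.09 to 0.72 for TIMP3. The median ratios at 4 weeks were 1.12, 0.04 and 0.65. For PDGFRA that median lay above all 3, opposite to the sign of the difference, and for TGFB1 and TIMP3 it lay within their range. Within repaired muscle alone, no gene of the 3 passed the test between 1 and 8 weeks (adjusted p = 0.853 for PDGFRA, 0.935 for TGFB1 and 0.809 for TIMP3; 0.085% of all genes called) or between 2 and 4 weeks (0.732, 0.603 and 0.811; 0% called).

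The within-rabbit ratios of the 3 genes were set against each other. Over 16 rabbits the log2 ratios of repair over control correlated at r = 0.88 (Spearman's rho 0.72) for PDGFRA and TGFB1, 0.90 (0.72) for PDGFRA and TIMP3 and 0.77 (0.58) for TGFB1 and TIMP3. These are descriptions without a test, and the points of a rabbit share their libraries, depth and normalisation factors. Among 2734 genes with a symbol, 1.83% followed TGFB1 more closely than PDGFRA did and 0.878% followed TIMP3 more closely than PDGFRA did, while 11.3% followed TIMP3 more closely than TGFB1 did. In the other direction, 5.93% followed PDGFRA more closely than TGFB1 did and 4.28% more closely than TIMP3 did. For TGFB1, 9.29% followed it more closely than TIMP3 did. Without the 2 rabbits farthest from the median, r was 0.74 and 0.62 for the pairs with PDGFRA (without rabbits 59 and 62) and 0.65 for TGFB1 and TIMP3 (without rabbits 7 and 59). Within the 7 rabbits of weeks 1 and 8, r was 0.68, 0.76 and 0.31, and within the 9 of weeks 2 and 4 it was 0.96, 0.92 and 0.86. The ratio of PDGFRA exceeded that of TGFB1 in 13 of 16 rabbits, by 0.60 ± 0.59 (SD) on the log2 scale, and exceeded that of TIMP3 in 10 of 16, by 0.39 ± 0.81. Across all 16 rabbits the SD of the log2 ratio was 1.18 for PDGFRA, 0.861 for TGFB1 and 0.44 for TIMP3, against a median of 0.449 over 11073 genes. Without rabbits 59 and 62 it was 0.678, 0.639 and 0.218, against a median of 0.399, so that TIMP3 went from the middle of all genes, with 48.7% below it, to the low end, with 9.91% below it.

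**Figure D3:**
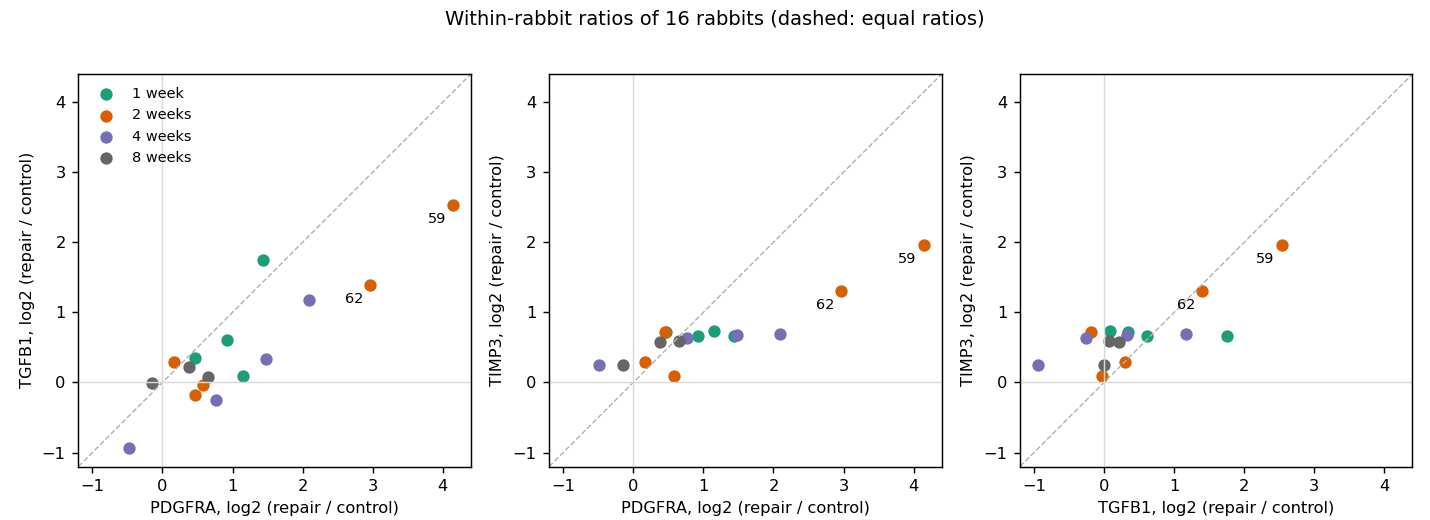
Within-rabbit log2 ratios of repair over control for each pair of genes, 1 point per rabbit (n = 16), coloured by weeks after repair; the dashed line marks equal ratios and rabbits 59 and 62 are numbered. Most points with a high PDGFRA ratio lie below the dashed line, and TIMP3 ratios of 1 week lie in a narrow band between 0.66 and 0.74.

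Among 2734 genes with a symbol and an average log2 CPM of at least 1, those with the most similar within-rabbit ratios were chosen by rank of Pearson's r. For PDGFRA these were FGFR1 (a fibroblast growth factor receptor, r = 0.981), PODN (0.974), FBN1 (fibrillin 1 of elastic microfibrils, 0.973), MFAP4 (a microfibril-associated protein, 0.969) and PTGFRN (0.967). They held at 0.913 to 0.958 without rabbits 59 and 62, and over the 33 libraries r was 0.912 to 0.966. For TGFB1 they were ARAP1 (0.941), COL5A1 (a fibrillar collagen chain, 0.94), PLTP (phospholipid transfer protein, 0.94), DTX4 (0.935) and OLFML2B (0.933), at 0.87 to 0.919 without rabbits 7 and 59. For TIMP3 they were POGLUT3 (0.964), IDS (a lysosomal sulfatase, 0.947), KIF3A (a kinesin motor subunit, 0.934), USP36 (0.93) and ZNF517 (0.93). These last 5 fell back to 0.706 to 0.857 without rabbits 59 and 62. Within weeks 1 and 8, which hold neither of those rabbits, r was 0.473 to 0.807.

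The pathway genes around the 3 members could be read only in part. Of 116 listed genes, 54 had a symbol and were tested, PDGFRA, TGFB1 and TIMP3 among them. Of these 54 genes, 34 have their symbol from a table of co-varying gene modules that the study built on repaired libraries of this series. In the mean effect, 35.7% of all genes known only from that table were called higher, against 24.4% of those from the other symbol table and 22.4% of all genes, so counts within the lists carry that selection. Of the 20 listed genes with a symbol from the other source, 12 were called higher (60%), as were 22 (64.7%) of the 34 known from the modules. The median mean log2FC was 0.04 over all genes. In the mean, edgeR called 25.7%, DESeq2 26.1% and the fit with the rabbit as a block 26.5% of all genes higher. The fit without the repair libraries of rabbits 59 and 62 called 19.6%. In that last fit each pathway list except the metalloproteases had as many higher calls, with lower medians, such as 0.49 for the ligand list and 0.79 for the targets.

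Of the PDGF family, 3 of 7 listed genes were measured, PDGFRA itself among them. All 3 were called higher in the mean effect (median log2FC 0.97, which is the value of PDGFRA). PDGFC, a ligand of the PDGF receptors, rose by 0.98 (SE 0.20, adjusted p = 0.000642) and was higher in repair in 15 of 16 rabbits. PDGFRB, the beta receptor typical of pericytes, rose by 0.69 (SE 0.20, adjusted p = 0.00938) and was higher in 14 of 16.

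Of 24 listed TGF-beta ligands and genes that store or activate them, 10 were measured, TGFB1 among them, and TGFB2 and TGFB3 had no symbol. Of the 10 measured, 4 were called higher and none lower (median 0.74). The count was 8 with the rabbit as a block, edgeR or DESeq2. With sample quality weights it was 6, and with the estimated correlation 5. The share of all genes called higher in the mean was not computed for these fits. THBS1, the matricellular activator thrombospondin 1, rose by 1.97 (adjusted p = 0.000589), LTBP2 by 1.39 (adjusted p = 0.00852) and LTBP1 by 1.04 (adjusted p = 0.00182). LTBP1 and LTBP2 are latent TGF-beta binding proteins of the matrix, and LRRC32 (0.85, adjusted p = 0.00416) encodes a membrane protein that presents latent TGF-beta. LTBP4 had a log2FC of -0.05 (adjusted p = 0.84) and BMP6 of 0.47 (adjusted p = 0.0716).

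Of 12 listed receptors 5 were measured, and TGFBR1 had no symbol. Of the 5 measured, 1 was called higher and 1 lower (median 0.12), with 2 higher and 0 lower under the rabbit block. TGFBR2, the ligand-binding TGF-beta receptor, rose by 0.94 (SE 0.18, adjusted p = 0.000384) and was higher in repair in 16 of 16 rabbits with log2 ratios of 0.03 to 2.63. BMPR2, a receptor for bone morphogenetic proteins, fell by 0.17 on the log2 scale (SE 0.07, adjusted p = 0.0367), a call lost under the block. Of 17 listed SMADs and SMAD regulators, the intracellular arm of the pathway, 5 were measured, and SMAD3 and SMAD4 had no symbol. Of the 5 measured, 0 were called in the mean effect by limma-voom, edgeR or DESeq2, none had an unadjusted p under 0.05, and the median was -0.07. With the rabbit as a block or with sample quality weights 1 was called lower, and with the estimated correlation 0. SMAD7, the inhibitory SMAD that TGF-beta itself induces, had a log2FC of -0.07 (SE 0.19, adjusted p = 0.78).

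Of 6 measured extracellular inhibitors of TGF-beta family ligands, 5 were called higher. FMOD and DCN, small proteoglycans that bind TGF-beta and collagen, rose by 3.11 (adjusted p = 0.0186) and 0.74 (adjusted p = 0.0188), and the BMP antagonist CHRDL1 by 1.63 (adjusted p = 0.000196). GREM1, another BMP antagonist, is among the 5, but was at 0 in all 5 controls of 2 weeks and at no more than 2 CPM in any library, so that its fitted fold depends on the prior count and is not given. Of 10 measured targets of TGF-beta, 8 were called higher, TIMP3 among them (median 1.12). The collagen genes COL1A1, COL1A2 and COL3A1 rose by 2.38, 2.19 and 1.52 (adjusted p = 0.00131, 0.00112 and 0.00461), the collagen cross-linking enzyme LOX by 1.91 (adjusted p = 0.00444), fibronectin (FN1) by 1.33 (adjusted p = 0.0184), CCN2 by 0.91 (adjusted p = 0.0185) and TGFBI by 0.85 (adjusted p = 0.00405). ACTA2, the smooth muscle actin of myofibroblasts, had 0.33 (adjusted p = 0.0966).

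On the side of matrix turnover, RECK, a membrane-anchored protease inhibitor, rose by 0.82 (adjusted p = 0.0114). It was the only other gene with a symbol in the list of TIMP3, since TIMP1, TIMP2 and TIMP4 had none. Of 15 measured metalloproteases of the MMP, ADAM and ADAMTS families, several of them known to be inhibited by TIMP3, 12 were called higher and none lower (median 1.18), and 7 were called higher without the repair libraries of rabbits 59 and 62. MMP2, gelatinase A, rose by 1.58 (SE 0.37, adjusted p = 0.00199) and was higher in 14 of 16 rabbits, and the aggrecan-cleaving ADAMTS5 and ADAMTS4 rose by 1.18 (adjusted p = 0.000131) and 1.48 (adjusted p = 0.0206). ADAMTS3, a procollagen peptidase, is among the 12, but its median was 0 in the controls of 2 and 4 weeks, and its fold is not given for the same reason as that of GREM1. ADAM10 and ADAM15, sheddases of the cell surface, had 0.14 (adjusted p = 0.303) and 0.20 (adjusted p = 0.113).

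At 2 weeks the lists gave 2 of 3 PDGF genes, 4 of 10 ligand and activation genes, 2 of 5 receptors, 3 of 6 inhibitors, 4 of 10 targets, both protease inhibitors and 4 of 15 metalloproteases called higher, where 7.95% of all genes were called higher. PDGFRA itself is among these PDGF genes, and TIMP3 is among these targets and protease inhibitors. With edgeR or DESeq2, which called 20% and 20.8% of all genes higher, 8 of 10 ligand genes, 8 of 10 targets and 12 of 15 metalloproteases were called. With the rabbit as a block, which called 19.2%, these counts were 6, 4 and 12. With the estimated correlation, for which the share of all genes was not computed, they were 4, 7 and 6. With sample quality weights, which called 3.28% of all genes higher, they were 0, 1 and 2. Of the 5 SMADs and SMAD regulators 0 were called higher at 2 weeks, and 1 with edgeR, DESeq2 or the estimated correlation. Without the repair libraries of rabbits 59 and 62 every count of higher calls at 2 weeks was 0, as 0.0561% of all genes were called higher in that fit.

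**Figure D4:**
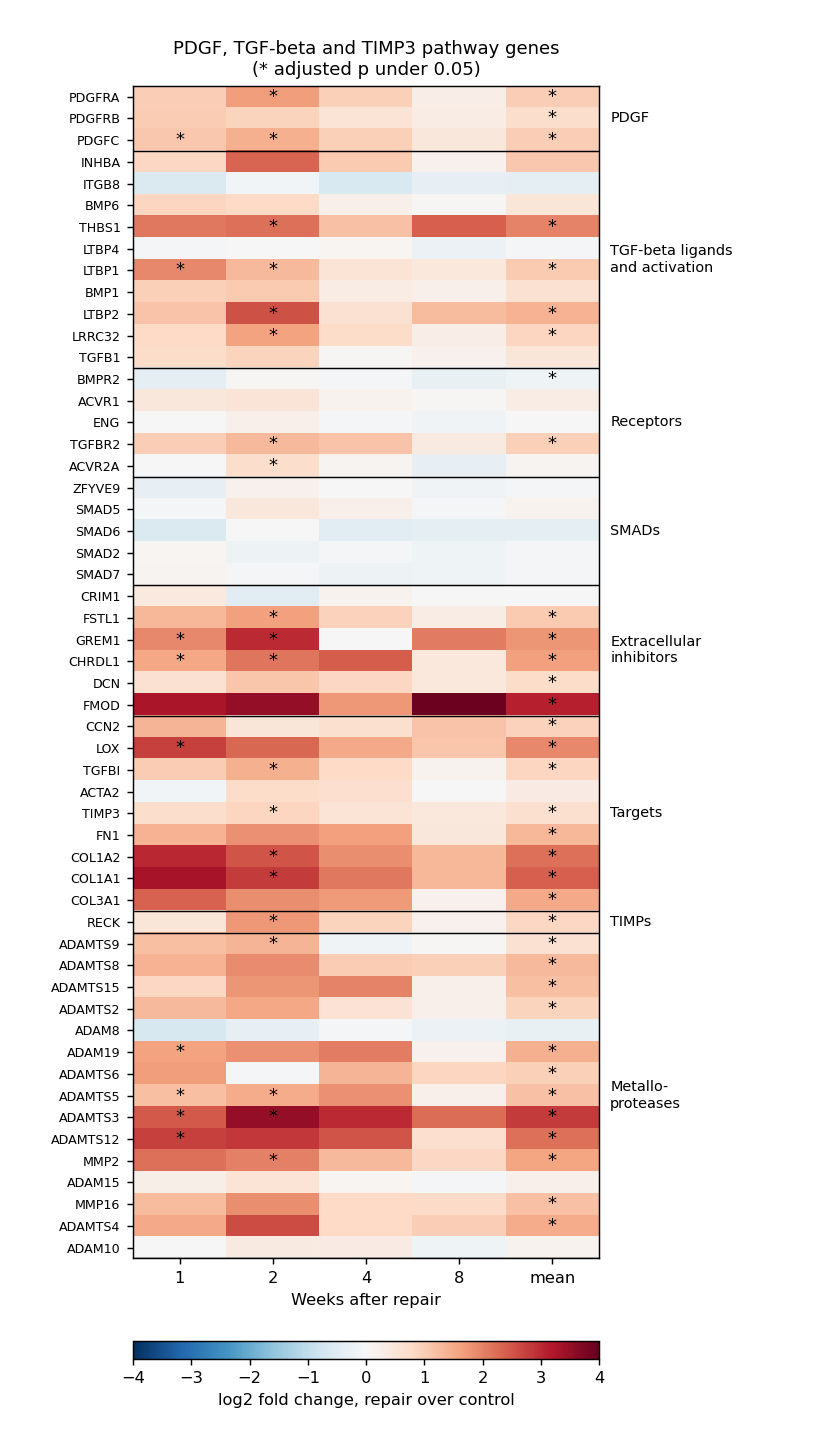
log2 fold change of repair over control for 54 measured genes of the PDGF, TGF-beta and TIMP3 pathways at 1, 2, 4 and 8 weeks and in the mean; red is higher in repair, and an asterisk marks an adjusted p under 0.05 in limma-voom. The collagen genes, LOX, THBS1 and FMOD are among the dark rows, and no measured SMAD is marked at any week. GREM1 and ADAMTS3 at 2 weeks are set against controls at or near 0.

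Markers of the cell types that muscle can hold were read beside the 3 genes. Of 20 measured stromal (fibro-adipogenic progenitor) markers, PDGFRA among them, 16 were called higher in the mean effect, where 22.4% of all genes were, and 20 had a positive log2FC (median 0.78). Without the repair libraries of rabbits 59 and 62, 14 were called higher (median 0.54), beside 19.6% of all genes. Summed over the 19 markers other than PDGFRA, the within-rabbit log2 ratio ran from -0.34 to 4.47 (median 0.88) and was positive in 14 of 16 rabbits. Over these rabbits it correlated at r = 0.94 with the ratio of PDGFRA, 0.92 with that of TGFB1 and 0.87 with that of TIMP3, and at 0.82, 0.85 and 0.62 without rabbits 59 and 62, again as a description over shared libraries. The stromal ratio exceeded that of PDGFRA in 11 of 16 rabbits, that of TGFB1 in 15 and that of TIMP3 in 10. For PDGFRA and TIMP3 these counts turned without COL1A1, COL1A2 and COL3A1. Without these 3 collagens the summed ratio of the other 16 markers ran from -0.34 to 2.19 (median 0.47) and exceeded that of PDGFRA in 4 rabbits, that of TGFB1 in 11 and that of TIMP3 in 6, with r of 0.96, 0.82 and 0.84, and of 0.92, 0.64 and 0.62 without rabbits 59 and 62.

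The other marker lists were shorter, since few of their genes had a symbol. Of 6 macrophage markers 0 were called (median 1.04), with 3 at an unadjusted p under 0.05 (ITGAM, C1QC and CSF1R), and their summed CPM reached 438 and 113 in the repair libraries of rabbits 59 and 62 against 2.96 to 102 in the other repair libraries. Of 3 endothelial markers 0 were called (median 0.19), with 1, VWF, at an unadjusted p under 0.05, of 6 mural markers 2 (PDGFRB and MCAM), and both adipocyte markers, ADIPOQ and LIPE, rose by 1.33 (adjusted p = 8.5e-05) and 1.58 (adjusted p = 0.000296). In the repair library of rabbit 59 the endothelial sum was 629 CPM, against 142 CPM in its control and at most 323 CPM in the other repair libraries, and the mural sum was 665 CPM, against 177 CPM and at most 464 CPM. The 3 tendon-associated genes THBS4, FMOD and MKX rose by 2.32, 3.11 and 2.29 (adjusted p = 0.00162, 0.0186 and 0.00754), and their sum was highest in the repair library of rabbit 59, at 1800 CPM, against 7.45 to 658 in the other repair libraries. The 3 muscle fibre markers, which summed to 3940 to 71000 CPM over the 33 libraries, were present throughout. TNNT3, ENO3 and ATP2A1 had log2FCs of -0.52, -0.41 and -0.47, none of which passed the test (adjusted p = 0.208, 0.206 and 0.168). At 1 week they had -1.57, -0.88 and -1.19 (adjusted p = 0.0993, 0.241 and 0.146). No satellite cell marker had a symbol. The part that cell composition had in the changes of PDGFRA, TGFB1 and TIMP3 was not tested.

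**Figure D5:**
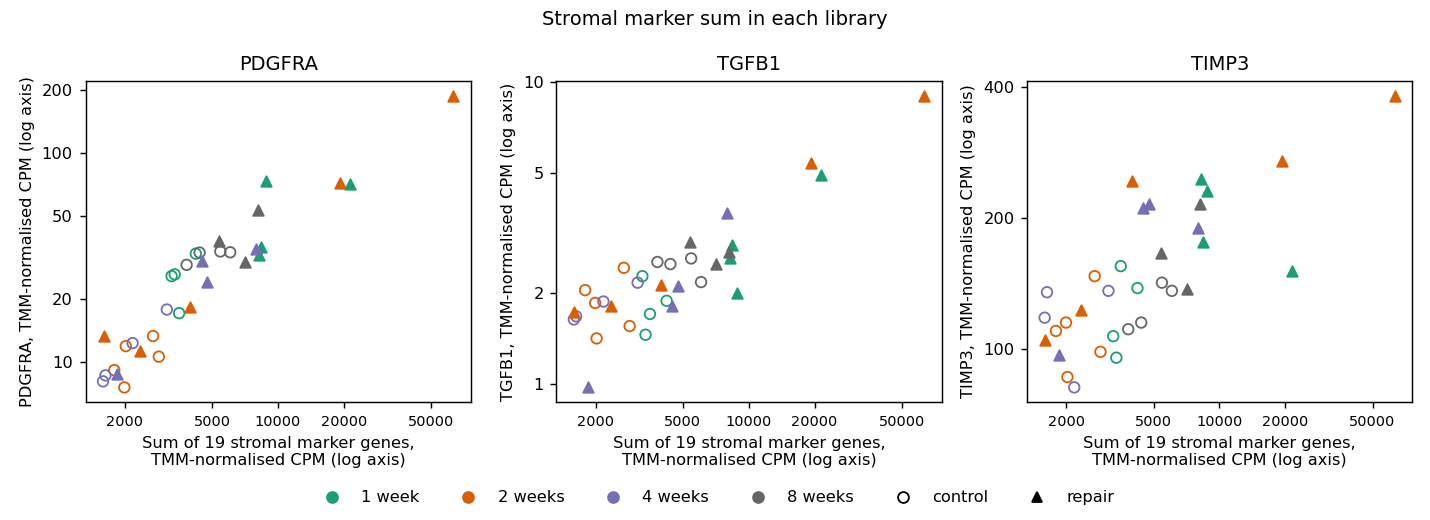
TMM-normalised CPM of each gene against the summed CPM of 19 stromal marker genes (PDGFRA left out) in each of 33 libraries, both axes logarithmic; open circles are control and filled triangles repaired muscle, coloured by weeks after repair. The repair libraries of rabbits 59 and 62 lie at the upper right, and the controls of weeks 2 and 4 at the lower left.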

How the data were processed

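RNA from 34 supraspinatus samples of 17 rabbits was sequenced by the authors from stranded mRNA libraries. The deposited values are RSEM expected counts for each gene. The authors aligned reads with STAR v2.5.1a on the rabbit genome OryCun2.0 and quantified them with RSEM v1.3.0 and Ensembl release 91. They are unscaled.

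Counts of 33 libraries were filtered (CPM over 1 in at least 1 library, 12937 genes), given TMM factors in edgeR 4.0.16 and modelled by limma-voom (limma 3.58.1 under R 4.3.3). The model held 8 groups, each treatment at each week, as the study's own design did. Its left library of rabbit 3 at 8 weeks was left out, as the study dropped 1 repair sample of 8 weeks at quality control. p-values were adjusted by the Benjamini-Hochberg method over all genes tested, genes were called at an adjusted p under 0.05 and named DE when the absolute log2FC was also above 1. Levels are TMM-normalised CPM. Of the listed genes only GREM1 had a group at 0, and its fold and that of ADAMTS3, with control medians of 0, are not printed. Total counts per library bound the precision, and Poisson intervals cover counting error only.

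Both shoulders of a rabbit share a number, so the numbers pair the samples. Residuals of the 16 pairs correlated at 0.0396 to 0.382 (median 0.238, over 0.1 in 15 of 16). The rabbit as a fixed block was an alternative, as were edgeR quasi-likelihood and DESeq2 1.42.0 on counts rounded to whole numbers, median-ratio scaling, other filters, all 34 libraries, duplicateCorrelation, quality weights, single weeks or title series, and leaving out each library. Added once values were known were library totals without TMM, the fits without rabbits 59 and 62, and the stromal sum without collagens.

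The 3 genes, the pathway lists and the marker lists were chosen with earlier results of these data known. Named besides the 3 genes were listed genes called in a weekly contrast or the mean, PDGFRB, PDGFC, MMP2 and TGFBR2, and the 5 genes most like each member. Listed genes and markers without a call are named by their values as examples, chosen after these were seen. Symbols, those of human orthologs, were found for 3310 of the genes tested, 1863 of them in a table ordered by identifier and 1447 only in a module table. The symbols of TGFB1 and TIMP3 come from the latter, whose Entrez column does not match its symbols and was not used. The authors' own fold changes and p-values, given in supplementary tables, were not used. Figures were drawn with matplotlib.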

Additional observations from a re-analysis of the deposited data

Results flagged for a closer look

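In 30 groups of 4 or 5 values, the gap between the most extreme value and its neighbour was divided by the range of the group, and 2 groups passed Dixon's critical value. Chance gives about 1 such group in 20. In the 8-week controls, rabbit 2 had the lowest PDGFRA, 29.1 CPM against 33.3 to 33.7 CPM in the other 3 (gap over range 0.918). In the 4-week rabbits, the log2 ratio of TIMP3 in rabbit 68 was 0.25 against 0.64 to 0.69 in the other 3 (0.885).

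The repair library of rabbit 3 at 8 weeks, which entered the results above only where it was put back as an alternative, held 36 counts of TGFB1 among 8756033, or 4.11 CPM by library total (exact 95% Poisson interval 2.88 to 5.69, counting error only). That is above the 1.96 to 2.59 CPM of the 8-week controls on the same scale. PDGFRA and TIMP3 were lower there than in any control of that week, at 10.5 and 79.9 CPM against 25.2 to 33.5 and 96.4 to 141 CPM.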

How the results depend on the processing

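The mean effects on PDGFRA and TIMP3 kept their sign in every alternative and their call in all but the fit on weeks 2 and 4 alone (1.29, adjusted p = 0.0872, and 0.68, adjusted p = 0.0565). With each of 33 libraries left out in turn they were 0.83 to 1.08 and 0.58 to 0.70, called every time, and TGFB1 was 0.36 to 0.54, called only without the repair libraries of rabbit 64 (0.53) or 68 (0.54). Without the replicate block TGFB1 at 2 weeks (0.90), TGFB1 in the mean (0.47) and TIMP3 at 1 week (0.69) were not called, and with it they were (1.07, 0.54 and 0.70); the block changed no other call of the 3 genes. TGFB1 was also called by edgeR (1.12 at 2 weeks, 0.56 in the mean) and DESeq2 (1.13 and 0.56), by quality weights at 1 week (0.78) and in the mean (0.37), and with library totals at 1 week (1.16) and in the mean (0.69). Library totals put the median of all genes at 0.47, 0.29, 0.32 and 0.11 at 1, 2, 4 and 8 weeks (0.05, 0.06, 0.05 and 0.01 with TMM). Relative to that median the member that moved most was TGFB1 at 2 weeks, from 0.85 to 0.71. TIMP3 at 1 week was called with library totals (1.12), quality weights (0.72) and week 1 alone (0.68), PDGFRA at 1 week with week 1 alone (0.97), and TIMP3 at 4 weeks with quality weights (0.82).

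The 2-week calls were the least stable. For PDGFRA the call was lost with no filter (1.63), all 34 libraries (1.66), quality weights (1.01), week 2 alone (1.64), library totals (1.89), without the repair libraries of rabbits 59 and 62 (0.44), and with the block without those rabbits (0.39). TIMP3 lost it with all 34 libraries (0.85), quality weights (0.72), week 2 alone (0.84) and without those libraries (0.42) or rabbits (0.36). With 1 of the 10 libraries left out, PDGFRA was 1.08 to 2.04 and not called without the controls of rabbits 59, 60, 61, 62 and 64 or the repair libraries of 59 and 62. TIMP3 was 0.64 to 1.08 and not called without the controls of rabbits 59, 60, 62 and 64 or the repair libraries of 59, 61 and 62. TGFB1 was 0.48 to 1.14 and called only without the repair library of rabbit 64. In the repair library of rabbit 59 the quality weight was 0.0909, the lowest of 33. Signs turned for uncalled values only: TGFB1 at 4 weeks (-0.21 to 0.34 with 1 library left out), TGFB1 at 2 weeks with the block and without rabbits 59 and 62 (-0.0019), and the difference between 4 and 2 weeks with quality weights (0.20 for PDGFRA, 0.10 for TIMP3). The difference between 4 and 2 weeks is not given without rabbits 59 and 62. In the mean effect, higher calls in the ligand list went from 4 to 8 with edgeR, DESeq2 or the block. They went to 6 with quality weights and to 5 with duplicateCorrelation, for which the share of all genes called higher in the mean was not computed. In the receptor list they went from 1 to 2 with edgeR, DESeq2, the block or duplicateCorrelation. In the metalloprotease list they went from 12 to 7 without the repair libraries of rabbits 59 and 62. The cause of these changes was not tested. Depth limits TGFB1 most, with 10 to 142 counts per library.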
